A study of Mus musculus with 6 samples.

Results

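Fetuin-A (*Ahsg*), fetuin-B (*Fetub*), histidine-rich glycoprotein (*Hrg*) and the kininogens (*Kng1* and *Kng2*) are plasma proteins built from cystatin domains, and their genes lie side by side on mouse chromosome 16. The 5 genes were chosen by symbol, as this cluster, out of 55487 gene rows, and all 5 passed the filter that left 12741 genes for testing. They were proposed with the C75S against WT values of these same libraries known, so their differences between genotypes are given as a description, without a p-value. Expression was measured by RNA sequencing of hepatocytes, the parenchymal cells of the liver, from mice aged 6 to 8 weeks, with RNA taken 48 h after the cells were isolated. One group was homozygous for AEG-1-C75S and the other was AEG-1-WT, both born to heterozygous AEG-1-C75S parents, both carrying the treatment label Control, with 3 libraries each. AEG-1, encoded by *Mtdh*, is a membrane protein of the endoplasmic reticulum, and C75S puts a serine in the place of a cysteine that can be palmitoylated. Nothing in the labels ties the libraries of a group to separate mice, so the spread given here is that between libraries and may be partly technical.

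These proteins are made mainly by hepatocytes and secreted into blood. Fetuin-A binds calcium phosphate and keeps it from precipitating in tissues, and it is known as a negative acute phase protein. Fetuin-B inhibits ovastacin, the egg protease that hardens the zona pellucida. Histidine-rich glycoprotein binds heparin, haem, plasminogen and fibrinogen. Kininogens are the precursors from which kallikreins release bradykinin, a peptide that dilates vessels and raises their permeability, and the long kininogen isoform takes part in contact activation of clotting. The mouse has a pair of kininogen genes.

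The cluster spans 190.8 kb of GRCm38, from 22891277 to 23082078. In order along the chromosome, *Ahsg* (ENSMUSG00000022868, chr16:22891277-22899449), *Fetub* (ENSMUSG00000022871, chr16:22918334-22939778) and *Hrg* (ENSMUSG00000022877, chr16:22951072-22961656) lie on the plus strand. *Kng2* (ENSMUSG00000060459, chr16:22985854-23029482) lies on the minus strand and *Kng1* (ENSMUSG00000022875, chr16:23057865-23082078) on the plus strand. The first 3 genes stand in a row with the same orientation, yet *Ahsg* was lower and the other two were higher in C75S. Their upstream sequences are therefore shown, 5′ to 3′, from RefSeq (GRCm38.p6, plus strand), ending at the RefSeq start of *Ahsg* (chr16:22891765-22892014) and *Hrg* (chr16:22950822-22951071). That of *Fetub* (chr16:22918132-22918333) ends where the first annotated exon begins. The *Ahsg* stretch lies inside the annotated gene, which begins at 22891277, but outside its annotated exons. Capitals mark matches, within these stretches, to the motifs described next.
*Ahsg*: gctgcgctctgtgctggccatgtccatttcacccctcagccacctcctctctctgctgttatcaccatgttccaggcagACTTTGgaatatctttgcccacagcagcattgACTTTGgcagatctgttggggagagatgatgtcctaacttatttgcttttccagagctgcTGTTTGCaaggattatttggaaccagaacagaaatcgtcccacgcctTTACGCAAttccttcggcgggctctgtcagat
*Fetub*: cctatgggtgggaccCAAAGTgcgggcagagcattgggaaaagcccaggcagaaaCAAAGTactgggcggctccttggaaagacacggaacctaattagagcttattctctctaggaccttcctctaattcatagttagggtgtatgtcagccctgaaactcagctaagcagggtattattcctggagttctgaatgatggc
*Hrg*: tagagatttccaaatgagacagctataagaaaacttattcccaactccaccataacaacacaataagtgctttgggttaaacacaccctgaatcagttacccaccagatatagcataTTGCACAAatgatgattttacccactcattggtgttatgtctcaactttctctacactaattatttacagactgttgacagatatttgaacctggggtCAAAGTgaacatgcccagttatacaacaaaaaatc

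The 250 bases before each RefSeq start were searched on both strands for letters bound by liver transcription factors. RefSeq promoters were found for 4 of the 5 genes, with 2 starts for *Fetub*, and none was used for *Kng1*. The windows of *Ahsg*, of *Kng2* and of the downstream *Fetub* start lie inside the genes as annotated here, outside their exons. The HNF4-type CAAAGT occurred at 2 places before *Ahsg*, at 2 before the upstream start of *Fetub* and at 1 before *Hrg*, and 12.6% of the 32851 promoters held it. The C/EBP-type TTGCNNAA occurred before *Ahsg*, beginning 32 bases upstream of the start, before *Hrg* at 133 and before *Kng2* at 112, and 9.6% of promoters held it. The FOXA-type TGTTTNC was found before *Ahsg*, before both starts of *Fetub* and before *Kng2*, with 17.8% of promoters holding it. The match before the upstream *Fetub* start begins 42 bases from it, and that of the TATA box letters TATAAA (12.4% of promoters) 31 bases from it. Both lie in a stretch that the annotation counts as exon of another transcript and that is not shown, nor are the windows of the other *Fetub* start and of *Kng2*. The HNF1-type GTTAAT (6.4% of promoters) and the STAT-type TTCNNNGAA (7.0%) had no match in these windows. *Ahsg*, which was lower in C75S, and *Hrg*, which was higher, shared the C/EBP-type and HNF4-type letters. *Fetub*, also higher, had no C/EBP-type match before either start. Whether the letters bear on the differences was not tested. These matches describe letters only. CAAAGT, TTGCNNAA and TGTTTNC overlapped at none of the places marked.

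The libraries held 16944723 to 21044292 counts on genes, and 3 counts corresponded to 0.143 to 0.177 CPM (counts scaled to 1000000 per library). *Mtdh* itself measured 211.8, 192.1 and 195.5 CPM in the C75S libraries and 198.3, 201.0 and 191.0 CPM in the WT libraries (log2 fold change 0.02, SE 0.05, edgeR adjusted p = 0.909), and a gene count does not read the mutated codon. All 10 hepatocyte markers checked were tested, with a summed level of 67120 to 80060 CPM in C75S and 75270 to 83020 CPM in WT, most of it albumin. Summed markers of other liver cells were low. Over 10 Kupffer cell and macrophage genes they came to 97.1 to 140.7 CPM in C75S against 104.3 to 135.1 CPM in WT, nearly all from *Cd68*, while *Clec4f* and *Adgre1* were detected in no C75S library and averaged 0.06 and 0.02 CPM in WT. Over 10 stellate cell and fibroblast genes the sums were 71.9 to 89.1 CPM in C75S and 85.4 to 108.4 CPM in WT, and the log2 fold changes of the 6 tested had a median of 0.01. Over 10 endothelial genes the sums were 38.2 to 49 CPM in C75S and 36.65 to 48.4 CPM in WT. Of these genes 8 were tested, and the log2 fold change was above 0 for 6, with a median of 0.37 (-0.003 over all tested genes). *Pecam1*, *Kdr* and *Lyve1* were higher without overlap, as were 9.02% of all tested genes, although none of the 8 passed the test. Their means were low, at 3.19, 0.91 and 2.47 CPM in C75S and 1.97, 0.56 and 1.36 CPM in WT. *Stab2*, the most abundant of the list, went the other way, with 24.9 CPM in C75S and 26.4 CPM in WT (log2 fold change -0.086). So did *Egfl7*, with 4.83 and 5.25 CPM (-0.121). Over 8 cholangiocyte genes the sums were 180.4 to 234.2 CPM in C75S and 160.4 to 168.4 CPM in WT, led by *Spp1*, with *Cftr* at 0. Of the 5 tested, 3 had a log2 fold change above 0, and the median was 0.44. It was -0.012 without C75S replicate 1 and 0.048 without WT replicate 1. *Krt19* passed the test as higher in C75S, as did 1.74% of all tested genes, and its call held in all 14 alternatives. Of the 6 tested stellate cell and fibroblast genes, 3 had a log2 fold change above 0, and *Acta2* alone passed, as higher (0.825). Its means were low, 4.65 CPM for C75S against 2.62 CPM for WT. The *Acta2* call was lost in 4 of 14 alternatives (edgeR adjusted p of up to 0.116). *Reln*, the most abundant gene of that list, was lower, with a C75S mean of 58.7 CPM against 75.2 CPM for WT. Its libraries overlapped (log2 fold change -0.358, edgeR adjusted p = 0.394). The hepatocyte marker *Cyp2e1* passed as higher and lost its call in 1 alternative, without WT replicate 3 (0.065). The part of these markers in the results below was not tested. In bulk RNA, fewer cells of a type and less RNA per cell cannot be told apart.

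The cluster genes did not share one direction between the genotypes. *Hrg* was 1.57-fold and *Fetub* 1.29-fold as high in C75S as in WT, *Kng1* was 1.17-fold as high, and *Ahsg*, the most abundant of the 5, was 0.861-fold. *Kng2* differed by less than its spread. For *Ahsg*, *Fetub*, *Hrg* and *Kng1* no C75S library overlapped the WT range. Of all tested genes, 18.0% showed such a separation, 9.02% as higher and 8.96% as lower in C75S. These 4 genes were also past an adjusted p of 0.05 in edgeR's quasi-likelihood test, which called 3.11% of all tested genes. Nothing is read from either count, because the genes were proposed from this contrast. The count of 4 fell to 2 when C75S replicate 2, WT replicate 1 or WT replicate 2 was left out, and to 3 when any other library was.

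*Hrg* had the largest difference. Its levels were 55.9, 65.1 and 67.1 CPM in the C75S libraries and 37.2, 42.9 and 40.1 CPM in the WT libraries. The lowest C75S library exceeded the highest WT library by 12.9 CPM. The means were 62.7 ± 5.98 CPM for C75S and 40.1 ± 2.88 CPM for WT (SD, n = 3 each), and the log2 fold change was 0.65 (SE 0.07). These levels rested on 783 to 1372 counts, for which counting error alone is 2.7% to 3.6%, against a coefficient of variation of 9.54% in C75S and 7.19% in WT. Of all tested genes, 3.63% had a log2 fold change of larger size.

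*Fetub* measured 97.9, 108.3 and 118.5 CPM in the C75S libraries and 81.7, 86.8 and 83.2 CPM in the WT libraries. The groups did not overlap, and the C75S libraries were spread more widely, with an SD of 10.3 CPM about a mean of 108.2 against 2.64 about 83.9 in WT (n = 3 each). The log2 fold change was 0.37 (SE 0.06). It was 0.30 without C75S replicate 3, the highest library, and 0.43 without C75S replicate 1, the lowest of the C75S libraries.

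*Ahsg* went the other way. The C75S libraries held 6699, 6606 and 7059 CPM and the WT libraries 7863, 8056 and 7742 CPM, with a gap of 682.9 CPM between the nearest libraries of the groups. The respective means were 6788 ± 240 and 7887 ± 158 CPM (SD, n = 3 each), a difference of -13.9% and a log2 fold change of -0.22 (SE 0.06). Counting error was 0.25% to 0.29%, so the spread of 3.53% in C75S and 2.0% in WT was almost all between libraries. In share of all gene counts, *Ahsg* made up 0.785% ± 0.019 in WT and 0.681% ± 0.017 in C75S. Its difference was small in size: 21.4% of tested genes had a larger one in either direction. *Alb*, another abundant product of the same cells, was lower in C75S by 0.15 on the log2 scale, with overlapping libraries and an edgeR adjusted p of 0.347.

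The kininogen genes differed from each other. *Kng1* measured 384.6, 417.3 and 419.7 CPM in the C75S libraries and 329.6, 343.5 and 369.5 CPM in the WT libraries, so that the groups were separated by 15.1 CPM. Its log2 fold change was 0.23 (SE 0.05), from means of 407.2 ± 19.6 and 347.5 ± 20.2 CPM (SD, n = 3 each). *Kng2* measured 130.8, 146.3 and 131.7 CPM in the C75S libraries and 124.1, 133.9 and 135 CPM in the WT libraries. These groups overlapped, and C75S replicate 2 alone lay above all WT libraries. Its log2 fold change was 0.06 (SE 0.05), and it fell to 0.00 without that library (0.003).

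**Figure D1:**
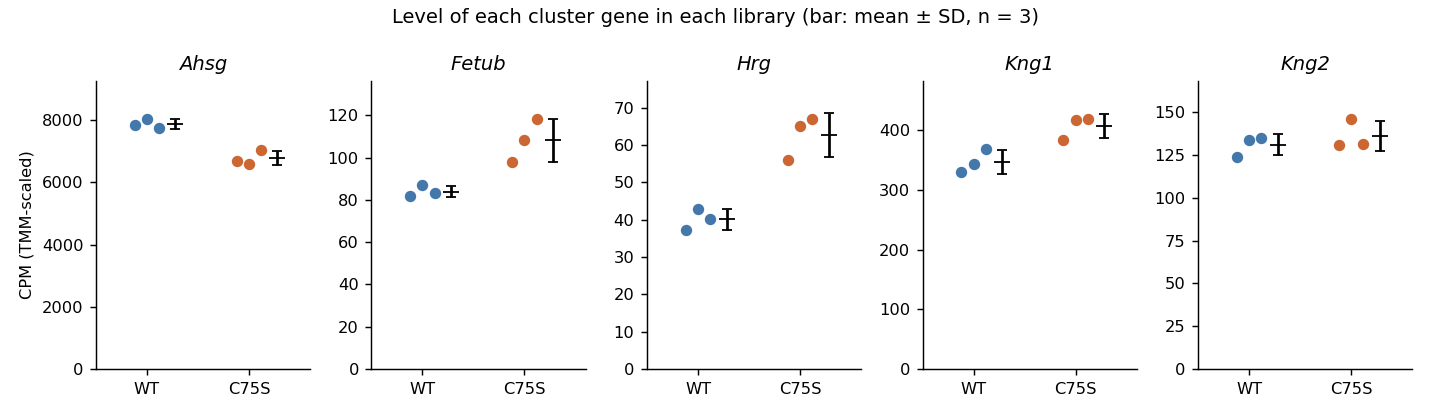
Level of each cluster gene in CPM (vertical axes start at 0 and differ between panels) for the 3 WT and 3 C75S libraries, with the mean and SD beside the points. *Ahsg* was lower in every C75S library, *Fetub*, *Hrg* and *Kng1* were higher in every C75S library, and *Kng2* overlapped.

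**Figure D2:**
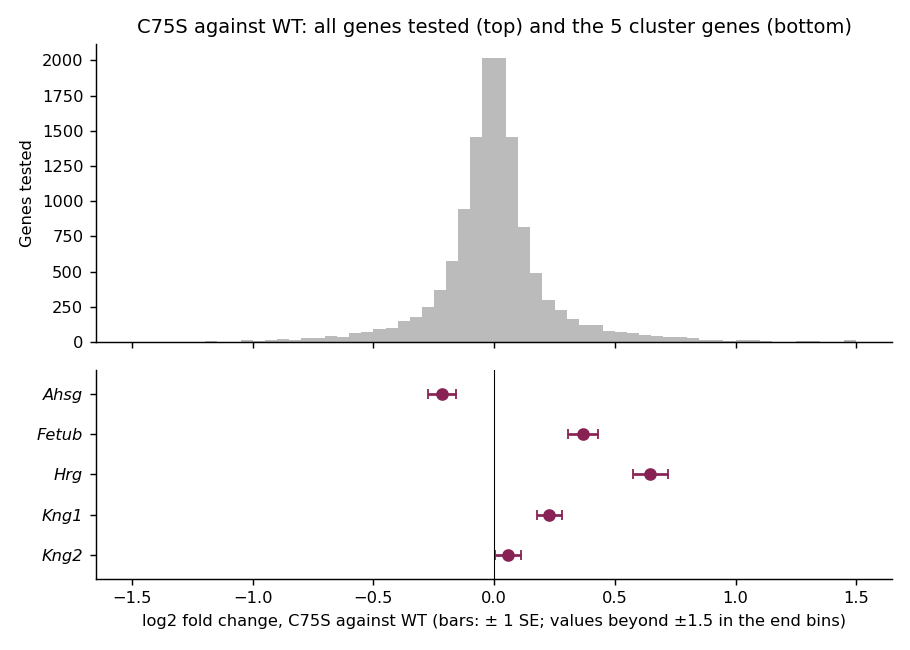
Top, number of tested genes by log2 fold change of C75S against WT. Bottom, the log2 fold changes of the 5 cluster genes with 1 SE on either side, from -0.22 for *Ahsg* to 0.65 for *Hrg*.

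Short reads from part of the kininogen transcripts cannot be placed on 1 gene. The number of such reads in these libraries was not measured. The longest transcripts of *Kng1* and *Kng2* were 91.1% identical over 2256 aligned bases. Of all windows of 50 bases in the *Kng1* transcript, 17.95% occurred unchanged in *Kng2*, and 18.22% of those of *Kng2* in *Kng1*. With windows of 100 bases the shares were 5.8% and 5.69%. The longest run without a difference held 194 bases, and its coding part, from the start codon on, shows why a read there cannot be assigned.
*Kng1* and *Kng2*: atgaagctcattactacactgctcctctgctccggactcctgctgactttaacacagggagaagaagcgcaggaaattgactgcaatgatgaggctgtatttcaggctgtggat
Reads that lie wholly in such stretches go to the multimapping class, which is not counted to genes, so the levels of both kininogens may be low estimates. The read length, on which any loss depends, is not given in the sources used here. *Fetub* and *Hrg* shared no 50-base window with another transcript. *Ahsg* shared 0.98% of its windows, all with *Gm30505*, a noncoding gene that runs antisense across its 5′ part and shares 62 exon bases with it.

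Of the 5 genes, the choice of strand column bore on *Ahsg* alone. In the column counted without strand, where reads in an overlap with *Gm30505* belong to neither gene, *Ahsg* had 4.96% to 5.17% fewer counts. On the antisense strand, *Gm30505* itself held 23 to 73 counts. For the other 4 genes the unstranded count differed from the strand-specific one by 0 to 4 reads. The *Ahsg* log2 fold change was -0.22 with either counting.

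Levels of different genes can be compared only per length, here as counts per kilobase of annotated exon, scaled to 1000000 per library (TPM). On this scale *Ahsg* ranked as number 11 of 12735 tested genes with a length in all 6 libraries, at 9167 ± 191 TPM in C75S and 10620 ± 236 TPM in WT (SD, n = 3 each). *Kng1* followed at 371.7 ± 10.4 and 316.2 ± 16.7 TPM, a level 24.7 times below *Ahsg* in C75S and 33.6 times below it in WT. *Kng2* (148 ± 10.6 and 141.7 ± 5.78 TPM) and *Fetub* (163.5 ± 10.7 and 126.5 ± 3.76 TPM) were next. In WT *Kng2* lay above *Fetub* in every library, whereas in C75S *Fetub* lay above *Kng2* within each library, at 152.4 against 146.1, 164.3 against 159.3 and 173.7 against 138.4 TPM, although the ranges of the 2 genes overlapped. Because the kininogen levels may be low estimates, the order of *Fetub* and *Kng2* describes the uniquely placed reads only. *Hrg* was the lowest, at 93.2 ± 6.56 TPM in C75S and 59.4 ± 4.09 TPM in WT. Its rank among tested genes was 1256 to 1523 in C75S and 2025 to 2380 in WT, and that of *Kng1* 250 to 273 and 282 to 325. With the length of the longest transcript in place of all exons, the order was the same in each genotype.

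**Figure D3:**
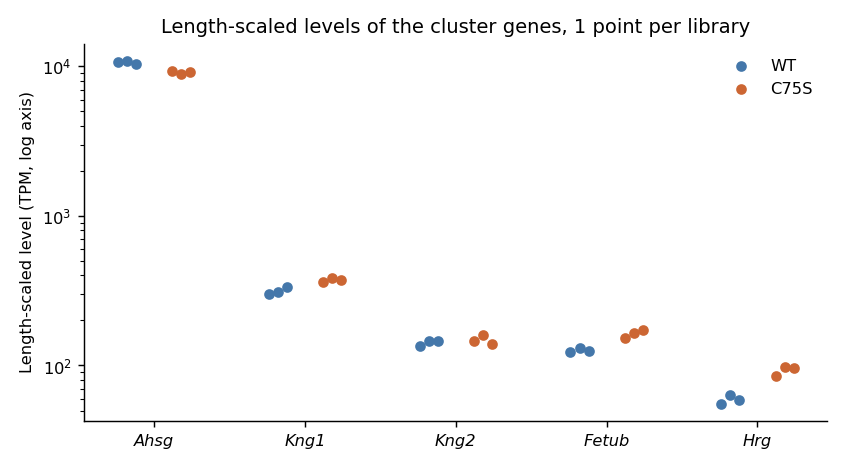
Length-scaled level (TPM, log axis) of each cluster gene, 1 point per library, WT and C75S side by side. *Ahsg* lies far above the rest. *Kng2*, which may be a low estimate, lies above *Fetub* in WT, and their ranges overlap in C75S.

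Because *Ahsg* outweighed the rest, the cluster as a whole and its minor members went opposite ways. The 5 genes together held 0.753% ± 0.015 of all counts for C75S and 0.845% ± 0.017 for WT (SD, n = 3 each). *Ahsg* made up 90.5% ± 0.48 of these counts in C75S and 92.9% ± 0.36 in WT. Without *Ahsg*, the summed level of the other 4 was 776.2 ± 28.9 TPM in C75S and 643.7 ± 24.7 TPM in WT.

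Ratios of 2 genes within a library do not depend on how libraries are scaled to each other. The log2 ratio of *Hrg* to *Ahsg*, per length, was -6.77, -6.53 and -6.58 in the C75S libraries and -7.58, -7.41 and -7.45 in the WT libraries. The difference of the means was 0.86, with SDs of 0.13 and 0.09. The ratio of *Fetub* to *Ahsg* was -5.93, -5.77 and -5.73 in C75S against -6.42, -6.37 and -6.38 in WT, a difference of 0.58. Between the kininogens, *Kng1* over *Kng2* was 1.31, 1.26 and 1.42 in C75S and 1.16, 1.11 and 1.20 in WT, a difference of 0.17. None of these 3 ratios overlapped between genotypes. For the ratios to *Ahsg* this follows from the separation of the single genes, in the contrast from which they were proposed. It is given as a description only. Reads that fit both kininogens equally are counted to neither, so the last ratio describes the uniquely placed reads.

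**Figure D4:**
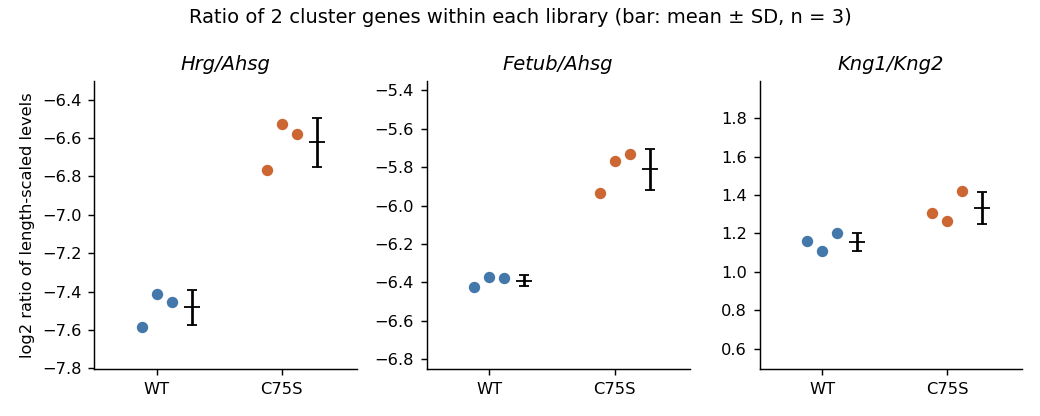
Log2 ratio of length-scaled levels of 2 cluster genes in each library, with the mean and SD (n = 3 per genotype). All panels span the same range of log2 units, and in each the C75S libraries lie above the WT libraries.

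Between libraries of one genotype, *Fetub* and *Hrg* varied more than most genes of like abundance and *Ahsg* less. The within-genotype SD of log2 CPM was 0.12 for *Hrg* against a median of 0.08 (0.075) over 4213 tested genes within 1 log2 unit of its mean level, and 88.7% of those had a lower SD. For *Fetub* it was 0.10 against 0.07 (0.065), with 87.0% lower. For *Kng1* and *Kng2* it was 0.08 each (0.077 and 0.080), with 72.5% and 74.6% lower. *Ahsg*, at 0.04 (0.041), had the lowest SD of the 17 genes near its level.

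Over the 6 libraries, *Hrg*, *Fetub* and *Kng1* had like profiles, as a description with no test, since all points share the genotype difference and the library scaling. Pearson's r of log2 CPM was 0.98 for *Hrg* with *Fetub* (0.979), 0.94 for *Hrg* with *Kng1* (0.936) and -0.87 for *Hrg* with *Ahsg* (-0.867). Among 6683 other named genes with a mean of at least 20 CPM, the profiles most like *Hrg* were those of *Dock5* (r = 0.997) and *Tex10* (0.996), and those most like *Fetub* were *Actn4* (0.988) and *Msrb1* (0.984). For *Kng1* they were *Fads1* (0.995) and *Khdrbs3* (0.994), for *Kng2* *Rnf5* (0.985) and *Slc12a4* (0.977), and for *Ahsg* *Zc3h4* (0.991) and *Rgs2* (0.990). Of these 10 genes, *Rgs2*, a regulator of G protein signalling, alone passed the test between genotypes: it fell to 19.8 ± 1.70 CPM in C75S from a WT mean of 36.6 ± 4.11 (SD, n = 3 each; log2 fold change -0.89, SE 0.09, edgeR adjusted p = 9.7e-07).

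The genes that flank the cluster were examined next, as position played no part in how the contrast was measured. Of 21 protein-coding genes that start within 1 Mb of the cluster, 13 were tested, and 1 passed an adjusted p of 0.05, as lower in C75S (1.37% of all tested genes were called in that direction); none passed as higher, where 1.74% of all genes were called. The median log2 fold change of the 13 was -0.04 (-0.045), against 0.00 (-0.003) over all tested genes. The nearest tested genes on the *Ahsg* side are *Dnajb11*, which encodes a chaperone of the endoplasmic reticulum, and *Tbccd1*. *Dnajb11* averaged 70.7 ± 3.95 CPM for C75S and 66 ± 1.76 CPM for WT (log2 fold change 0.10, SE 0.06, edgeR adjusted p = 0.508), and *Tbccd1* had a log2 fold change of -0.05 (-0.045, SE 0.09). On the *Kng1* side, *Eif4a2*, a translation initiation helicase, was at 188.6 ± 12.2 and 189.6 ± 10.9 CPM (log2 fold change -0.01, SE 0.05, adjusted p = 0.973). *Adipoq*, which encodes adiponectin of fat cells, averaged 0.02 CPM in both groups. The called neighbour was *Rtp4*, an interferon-induced gene that starts 629 kb from *Ahsg*: 8.45 ± 1.24 CPM in C75S and 11.6 ± 1.04 CPM in WT (log2 fold change -0.47, SE 0.13, edgeR adjusted p = 0.0477). It lost that call in 8 of 14 alternatives, among them DESeq2 and limma-voom, with an adjusted p of up to 0.239.

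**Figure D5:**
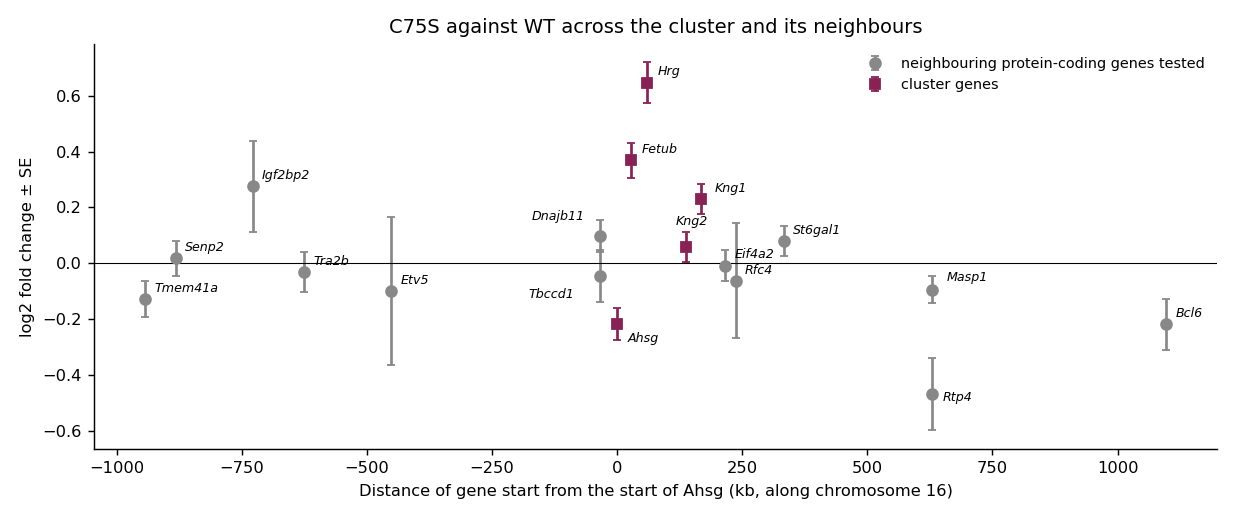
Log2 fold change of C75S against WT, with 1 SE on either side, by distance of each gene's start from that of *Ahsg*, for the 5 cluster genes and the 13 tested neighbours. *Hrg*, *Fetub* and *Kng1* lie above 0, *Ahsg* below it, and *Dnajb11*, *Tbccd1* and *Eif4a2*, next to the cluster, within 0.10 of 0.

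The gene lists below were written with earlier results of these data known, so their counts are given as a description. The kallikrein-kinin system was read from a list of 15 genes. They cover the proteases that act on kininogen, their inhibitor, the peptidases that break kinins down and the kinin receptors. Of 11 tested, 1 passed as lower in C75S and 0 as higher (1.37% and 1.74% of all tested genes), and the median log2 fold change was 0.00 (-0.003). Without C75S replicate 2, and with no filter, 2 were called. *F12*, the gene of coagulation factor XII, which starts contact activation, averaged 503.9 ± 41.2 CPM for C75S and 588.3 ± 3.94 CPM for WT (SD, n = 3 each). Its log2 fold change was -0.22 (SE 0.06, edgeR adjusted p = 0.0254), lower in every C75S library. That call was lost without C75S replicate 1 or without any 1 of the WT libraries (adjusted p of up to 0.156). *Klkb1*, the gene of plasma prekallikrein, the protease that cuts kininogen, was low, at 2.47 ± 0.21 and 3.56 ± 0.56 CPM (log2 fold change -0.52, SE 0.22, adjusted p = 0.262). *Serping1*, the C1 inhibitor that blocks both proteases, was at 375.8 ± 27.4 and 376.5 ± 9.52 CPM. Among the genes that break kinins down, *Cpn1* had a log2 fold change of -0.11 (SE 0.06, adjusted p = 0.417) and *Ace* of 0.60 (SE 0.41, adjusted p = 0.567) from about 1 CPM or less. The receptor gene *Bdkrb1* and the tissue kallikrein *Klk1* were at 0 counts in all libraries, and *Bdkrb2* averaged 0.16 CPM in C75S and 0.05 CPM in WT, under the filter. A count of 0 allows up to 0.143 to 0.177 CPM per library, for counting error only.

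Other genes with the cystatin fold were few in these cells. Of 7 listed, 3 were tested and 2 passed as higher in C75S (1.74% of all tested genes did), with a median log2 fold change of 0.20. *Spp2*, which encodes secreted phosphoprotein 24, a bone and plasma protein with a cystatin-like domain, rose to 7.54 ± 0.42 CPM in C75S from a WT mean of 4.60 ± 0.25 (log2 fold change 0.71, SE 0.15, edgeR adjusted p = 0.0073). *Cstb*, the intracellular inhibitor of cathepsins cystatin B, rose from 169.9 ± 6.39 to 195.4 ± 10.4 CPM (log2 fold change 0.20, SE 0.05, adjusted p = 0.0281). The *Cstb* call was lost without C75S replicate 1, WT replicate 2 or WT replicate 3. *Cst3*, the secreted cystatin C, had a log2 fold change of 0.05 (SE 0.05, adjusted p = 0.708). *Csta1*, *Cst7* and *Camp* were at 0 in all libraries.

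Genes for binding partners and targets of fetuins and histidine-rich glycoprotein gave 10 tested of 14 listed, of which 3 passed as higher and 0 as lower, against 1.74% and 1.37% of all tested genes. The median log2 fold change was 0.28. Without C75S replicate 3, 5 were called. *Plg*, the gene of plasminogen, which histidine-rich glycoprotein binds, rose to 168.8 ± 10.9 CPM in C75S from a WT mean of 124.7 ± 9.05 (log2 fold change 0.44, SE 0.06, edgeR adjusted p = 3.56e-05). *Fgg*, the gamma chain of fibrinogen, rose from 267.9 ± 11.1 to 348.4 ± 27.2 CPM (log2 fold change 0.38, SE 0.05, adjusted p = 0.000133). *Thbs1*, thrombospondin, also a ligand of histidine-rich glycoprotein, rose from 75.5 ± 8.57 to 103.1 ± 6.33 CPM (adjusted p = 0.000641). The calls of these 3 genes held in all 14 alternatives. *Insr*, the insulin receptor, which fetuin-A can inhibit, averaged 203.2 ± 3.63 CPM for C75S and 204.6 ± 6.74 CPM for WT (log2 fold change -0.01, SE 0.05, adjusted p = 0.965). *Astl*, the gene of ovastacin, the protease that fetuin-B inhibits, was at 0, as was *Mgp*.

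Other abundant plasma proteins of the liver did not share one direction. Of 17 tested, 3 passed as higher and 0 as lower, against 1.74% and 1.37% of all tested genes. Of the 17, 8 had a log2 fold change above 0, as had 49.1% of all tested genes, and the median was -0.02 (-0.016). Without C75S replicate 1, 5 were called. *Apoa2*, an apolipoprotein of high density lipoprotein, rose from 368.6 ± 17.9 to 502 ± 41.4 CPM (edgeR adjusted p = 2.91e-05) and *Itih2*, a heavy chain of the inter-alpha-trypsin inhibitor, from 402.9 ± 23.8 to 491.1 ± 27.5 CPM (adjusted p = 0.0027). *Itih4*, a related chain, rose from 699.5 ± 39.4 to 825.4 ± 49.2 CPM (adjusted p = 0.018) and lost its call in 4 of 14 alternatives. All 15 listed acute phase genes, which include *Itih4* as well, were tested: 8 passed as higher and 0 as lower, against 1.74% and 1.37% of all tested genes. Their median log2 fold change was 0.24. Without WT replicate 1 or WT replicate 2, 5 were called. By p-value the first were *Fgb*, the beta chain of fibrinogen, from 1320 ± 53.6 to 1650 ± 98.5 CPM (adjusted p = 0.00112), *Orm2*, an orosomucoid, from 82.3 ± 1.91 to 103.1 ± 8.75 CPM (0.00136), and *Saa1* (log2 fold change 0.48, adjusted p = 0.00154). *Ahsg*, lower in C75S, stood beside higher levels of these genes, while *Crp* (log2 fold change 0.01, SE 0.08), *Hp* (-0.03, SE 0.07) and *Cp* (0.04, SE 0.06) did not pass. Of the 15, 12 had a log2 fold change above 0, against 49.1% of all tested genes. *Saa4* lay below 0 (-0.276, SE 0.085, edgeR adjusted p = 0.105), with overlapping libraries. A link between *Ahsg* and the acute phase genes was not tested.

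Among 18 liver transcription factors, all tested, 1 passed as lower in C75S and 0 as higher (1.37% and 1.74% of all tested genes), with a median log2 fold change of -0.02 (-0.022). It was *Prox1*, a homeobox factor of hepatocytes, which averaged 119.2 ± 3.4 CPM for C75S and 137.8 ± 4.03 CPM for WT (log2 fold change -0.21, SE 0.05, edgeR adjusted p = 0.018). The call was lost without C75S replicate 1, WT replicate 2 or WT replicate 3. For the factors whose letters were searched in the upstream sequences, *Hnf4a* had a log2 fold change of -0.06 (SE 0.05), *Cebpa* of -0.09 (-0.085, SE 0.06), *Cebpb* of 0.04 (SE 0.055), *Foxa2* of 0.10 (SE 0.06) and *Stat3* of 0.06 (SE 0.05), with edgeR adjusted p-values from 0.503 to 0.84. None of these 5 passed the test. Of the 18 factors, 3 were higher without overlap, *Foxa2* among them, and 4 were lower without overlap. Of all tested genes, 9.02% and 8.96% were so separated.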

How the data were processed

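The deposited files hold raw counts per Ensembl gene, 1 file per library, with strand-specific columns beside an unstranded one. The submitters' processing notes name Trim Galore 0.6.6, STAR 2.7.9a, edgeR 3.36.0 and mm10 (GRCm38), and the column layout of the deposited counts is that of STAR; the annotation release is not given in the sources used here. Multimapping reads, 17.98% to 18.54% of each file, are listed apart from genes by the authors' counting. Reverse-strand counts were used and the 4 summary rows left out (unmapped 4.37% to 5.81%, no feature 4.99% to 5.55%, ambiguous 0.89% to 0.93%). Of 55487 rows, 55227 matched GENCODE M21.

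Genes were filtered with filterByExpr (minimum count 10, total 15), and scaled by TMM. The main test, in edgeR 4.0.16 under R 4.3.3, was a two-sided quasi-likelihood test with genotype as the only term and Benjamini-Hochberg adjustment over 12741 genes at 0.05. SEs are the log2 fold change over the square root of F. DESeq2 1.42.0 and limma 3.58.1 (voom) were alternatives, with other scalings, no filter, unstranded counting, a replicate block and omission of each library. Transcripts were compared with BLAST 2.17.0. On simulated counts for C75S against WT (12741 genes, 200 changed by 1.5-fold), 71% of the changed genes were called and 8.39% of calls were false.

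The members, lists and naming rule were chosen with earlier results of these data known. Named were the 5 cluster genes, up to 3 called genes per list by p-value (with none called, the 2 most abundant), the nearest and any called neighbours, and 2 genes of most similar profile per member. *Klkb1*, *Serping1*, *Cpn1*, *Ace*, *Bdkrb1*, *Bdkrb2*, *Klk1*, *Cst3*, *Insr*, *Astl*, *Adipoq*, *Alb*, *Crp*, *Hp*, *Cp*, *Saa4*, the other genes listed at 0, the searched transcription factors and the markers are named outside that rule, for their role. The listed symbol Tf had no match. Lists share some genes, such as *Itih4* and *Spp1*.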

Additional observations from a re-analysis of the deposited data

How the results depend on the processing

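Leaving out 1 library moved the number of genes called from 396 to between 201 and 355. The lowest counts were 201 (WT replicate 2 omitted), 246 (WT replicate 3) and 253 (C75S replicate 1). With no filter it was 573. Of the cluster genes, 4 were past the threshold in each of the 8 alternatives that kept all libraries, and 2 to 3 with 1 library left out: *Hrg* and *Fetub* stayed past it each time. *Ahsg* lost its call in every omission but that of C75S replicate 3, and *Kng1* in every omission but those of C75S replicate 1 and WT replicate 3. The log2 fold changes ranged over omissions from -0.245 to -0.197 for *Ahsg*, 0.298 to 0.434 for *Fetub*, 0.596 to 0.721 for *Hrg*, 0.193 to 0.275 for *Kng1* and 0.003 to 0.086 for *Kng2*.

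The labels state no pairing by replicate number. Deviations of same-numbered libraries correlated at 0.017, -0.04 and 0.025 over all genes, which cannot exclude a pairing that touches few genes. With the replicate block, 480 genes were called, and called members became 2 for the kinin system, 5 for liver plasma proteins and 2 for hepatocyte markers, against 1, 3 and 1. Without a filter these were 2 for the kinin system, 6 for plasma proteins and 2, against 1, for stellate cell and fibroblast genes. With limma-voom cholangiocyte markers had 2 called members against 1. The single called neighbour became 0 with library size alone, DESeq2 and limma-voom. Over omissions, called members ranged from 0 to 2 for the kinin system, 1 to 2 for cystatin-fold genes, 3 to 5 for binding partners, 2 to 5 for plasma proteins, 5 to 8 for acute phase genes, and 0 to 1 for transcription factors, hepatocyte markers, stellate cell and fibroblast genes and neighbours, and 1 to 2 for cholangiocyte markers. Medians ranged from 0.215 to 0.357 for binding partners, 0.18 to 0.253 for acute phase genes, -0.132 to 0.125 for stellate cell and fibroblast genes, -0.012 (reversed, without C75S replicate 1) to 0.663 for cholangiocyte markers and -0.077 to -0.014 for neighbours. The ratio differences, with omissions and unstranded counting added after seeing the data, ranged from 0.809 to 0.931 for *Hrg* to *Ahsg*, 0.541 to 0.641 for *Fetub* to *Ahsg* and 0.127 to 0.207 for *Kng1* to *Kng2*. The causes were not tested. The longest transcript in place of all exons gave 12730 TPM for *Ahsg* and 369.1 TPM for *Kng1* in WT. Searching 1 strand alone lowered the shares of promoters with a match for 5 of the 6 motifs.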
